A study of Mus musculus with 6 samples.

Results

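The ribosomal protein genes encode the proteins of the machine that makes every protein of the cell, and their chromatin was followed here through an ATAC-seq series of mouse intestinal organoids. ATAC-seq uses a transposase that inserts into open DNA, so a stretch that collects many fragments (a peak) is accessible chromatin. The genes were chosen by name: all protein-coding genes of the GRCm38 annotation whose symbol starts with Rpl or Rps followed by a digit, and Rpsa, Rplp0, Rplp1 and Rplp2, without the Rps6k kinases, Rps19bp1 and symbols that mark pseudogenes. That gave 88 genes on 19 chromosomes, 34 for the small and 54 for the large ribosomal subunit. Their peaks were the consensus peaks within 1 kb of either end of such a gene, 128 of the 90823 in the series, and 84 of the 88 genes had at least 1. The rule uses gene names and positions alone.

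The organoids are miniature epithelia grown from crypts of the mouse intestine in Matrigel, in a medium with EGF, Noggin, R-spondin and the kinase inhibitors CHIR-99021 and Y-27632, and all 3 groups shared this culture. One group received arachidonic acid (AA) at 25 µM, another prostaglandin E2 (PGE2) at 50 nM and the control group vehicle, each for 3 days and with 2 libraries per group. AA is the membrane fatty acid from which cells make PGE2. The doses of AA and PGE2 differ, and the series text names the second agent in one place as PGE2 and in another as its dimethyl analog, so the group is called PGE2 here as in the sample labels. The nuclei came from sorted intestinal epithelial cells, and the labels give no strain, age, sex or number of mice and do not say whether the libraries of a group were separate cultures. The spread that the p-values rest on may thus be partly technical.

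A ribosome is assembled in the nucleolus from ribosomal RNA and a full set of ribosomal proteins, so the protein genes have to be expressed in step although they lie scattered over the genome. Many of their mammalian promoters lack a TATA box and start transcription at a C within a run of pyrimidines, and the RNA then begins with the terminal oligopyrimidine (TOP) tract, through which mTORC1 and Larp1 control its translation. The crypts of the intestine are among the fastest renewing tissues of the body, and their stem and progenitor cells depend on a high output of ribosomes.

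The 3 promoters whose peak over the start gained most with PGE2, and the promoter with the strongest peak over a start that differed in no comparison, are shown so that their motifs can be compared. Each is the 300 bases from 250 before to 50 after the RefSeq transcript start on GRCm38.p6, read along the gene, with capitals for the motifs searched (CCGGAAG for GABP and other ETS factors, GGGCGG for the GC box, CCAAT for NF-Y and CTTTCC for a pyrimidine run, on either strand; the other 5 motifs searched had no match in these 4). Rps10 is shown at chr17:27635195-27635494 on the minus strand, Rpl36al at chr12:69184018-69184317 on the minus strand, Rpl5 at chr5:107900278-107900577 on the plus strand and Rps21 at chr2:180257129-180257428 on the plus strand.
Rps10: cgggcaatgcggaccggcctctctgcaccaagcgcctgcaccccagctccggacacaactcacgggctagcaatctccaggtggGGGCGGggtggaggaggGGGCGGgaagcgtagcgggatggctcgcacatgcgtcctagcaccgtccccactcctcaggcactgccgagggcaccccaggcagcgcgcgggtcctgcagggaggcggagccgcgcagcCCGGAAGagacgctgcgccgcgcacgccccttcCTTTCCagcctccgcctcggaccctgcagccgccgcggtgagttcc
Rpl36al: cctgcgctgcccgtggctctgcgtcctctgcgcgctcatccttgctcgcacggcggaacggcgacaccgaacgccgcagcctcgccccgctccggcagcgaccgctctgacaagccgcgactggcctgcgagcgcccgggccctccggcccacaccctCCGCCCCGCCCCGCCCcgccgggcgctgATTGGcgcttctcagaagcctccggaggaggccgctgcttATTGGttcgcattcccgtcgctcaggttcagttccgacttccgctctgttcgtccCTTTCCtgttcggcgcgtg
Rpl5: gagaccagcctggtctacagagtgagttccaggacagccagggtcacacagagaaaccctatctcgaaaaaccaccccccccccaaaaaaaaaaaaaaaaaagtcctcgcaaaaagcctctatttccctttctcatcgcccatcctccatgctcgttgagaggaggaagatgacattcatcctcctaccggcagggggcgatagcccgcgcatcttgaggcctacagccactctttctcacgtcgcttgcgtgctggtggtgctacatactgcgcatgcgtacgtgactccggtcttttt
Rps21: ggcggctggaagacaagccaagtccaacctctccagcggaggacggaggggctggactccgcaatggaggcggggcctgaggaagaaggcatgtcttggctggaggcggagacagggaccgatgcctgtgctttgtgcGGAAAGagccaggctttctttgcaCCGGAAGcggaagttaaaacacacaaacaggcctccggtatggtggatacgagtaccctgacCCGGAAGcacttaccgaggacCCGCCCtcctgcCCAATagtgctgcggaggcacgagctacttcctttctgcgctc
Rps10 held 2 GC boxes, an ETS motif 29 bases before the start and the pyrimidine run beginning at base 5, with the first transcribed base as 1. Rpl36al held 3 overlapping GC boxes read on the other strand, of which the nearest lay 82 bases before the start, and 2 inverted CCAAT boxes. Rpl5 held none of the motifs searched. Rps21, whose accessibility did not differ in any comparison, held 2 ETS motifs, at 88 and 26 bases before the start. A match of letters is a description and not a bound site.

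The libraries held 14236985 and 12374232 counts with AA, 13051109 and 13378895 with PGE2 and 12819432 and 12900551 with vehicle. Levels are given as CPM, counts divided by the TMM-scaled library total, and per kb of peak width where peaks are compared with each other. Gene-end peaks, that is all consensus peaks within 1 kb of an end of a protein-coding gene, made up 17.9% of the peaks. They took 35.29% and 35.8% of the counts with AA, 37.37% and 38.9% with PGE2 and 34.86% and 34.35% with vehicle, so both PGE2 libraries had more of their counts at gene ends than any other library. The part of this shift in the results below was not tested, but the counts under separate scaling of gene-end peaks are given beside them.

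The cells carried open chromatin at the epithelial genes: all 12 markers listed for epithelium (such as Epcam, Cdh1, Krt8 and Cdx2) had peaks at their ends, with summed levels of 1370 and 1360 CPM with AA, 1320 and 1360 CPM with PGE2 and 1350 and 1370 CPM with vehicle. Of 10 stromal markers 2 had a peak, of 12 immune markers 4 and of 8 endothelial markers 2, and the defining genes Ptprc, Cd3e, Pdgfra, Col3a1, Pecam1 and Cdh5 had none. The 4 immune-marker peaks lay near Cd4, Cd79a, Itgam and Spi1 and summed to 48.8 and 41.3 CPM with AA, 50.5 and 57.3 CPM with PGE2 and 38.0 and 41.7 CPM with vehicle. With PGE2 3 of these 4 were higher, where 31.0% of gene-end peaks were, and with AA 1 was, where 14.6% were. DESeq2 and separate scaling of gene-end peaks each called 1 higher with PGE2 and 0 with AA (0 and 1 at an unadjusted p under 0.05). Of 25 epithelial peaks 5 were higher and 3 lower with PGE2, and 4 higher and 3 lower with AA. The part of the immune-marker changes in the ribosomal protein results was not tested. Stromal peaks summed to 27.0 and 28.9 CPM with AA, 29.1 and 30.9 CPM with PGE2 and 30.8 and 30.6 CPM with vehicle, and 0 of 3 passed by edgeR with either agent (1 lower with AA at an unadjusted p under 0.05) or by DESeq2.

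Ribosomal protein peaks were more accessible than most peaks, at a level near that of gene-end peaks over a start of any gene. Their median level was 23.3 CPM (range 1.17 to 101), against 16.2 CPM over all gene-end peaks and 4.64 CPM over all peaks. Gene-end peaks over a start had a median of 24.7 CPM. The members were also wider than all peaks, with a median length of 1042 bp against 547 bp. Per kb the medians were 21.0 CPM for ribosomal protein peaks, 15.8 CPM for gene-end peaks, 20.7 CPM for those over a start and 8.58 CPM for all peaks. The median member stood at percentile 85.8 of all peaks by CPM and at 79.8 by CPM per kb. Together the 128 peaks took 0.338% and 0.336% of all counts with AA, 0.356% and 0.355% with PGE2 and 0.337% and 0.338% with vehicle. Both PGE2 libraries lay above the other 4, and the AA and vehicle libraries overlapped.

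Where the gene's strand is given (68 of the 88 genes matched the RefSeq promoter table), the strongest peak of a gene was mostly at the start. Of 65 genes with a peak and a table entry, 53 had their strongest peak over the annotated start. The 59 peaks over a start had a median level of 27.8 CPM and were centred a median of 26 bp after the start, while the 35 peaks near the other end had a median of 7.59 CPM. Per kb, peaks over the start had a median of 24.3 CPM and those near the end 11.9 CPM. Gene-end peaks over a start of any gene had medians of 24.7 CPM and, per kb, 20.7 CPM. Another 5 peaks lay at the starting end of the gene without covering a start of that gene. For Rpl18, Rpl19 and Rps2 the consensus peak over the table's start fell outside the 1 kb window, so it is not among the members. For 29 peaks at genes without a table entry no end was assigned.

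The member peak with the highest mean level lay at the upstream end of the annotated Rpl18 gene (chr7:45714526-45715566), which encodes a large-subunit protein. This peak lies upstream of the table's start of Rpl18 without covering it, and it covers a start of another gene. It had 104 and 99.1 CPM with AA, 105 and 101 CPM with PGE2 and 92.1 and 102 CPM with vehicle. The peak over the start of Rps21 (chr2:180255800-180257785), which encodes a small-subunit protein and shares the region with Cables2, had 96.5 and 97.7 CPM with AA, 101 and 99.2 CPM with PGE2 and 99.7 and 97.4 CPM with vehicle. The AA and vehicle libraries overlapped at both, and neither differed in any comparison. Rps19, a small-subunit gene that is mutated in human Diamond-Blackfan anaemia, followed with 77.5 and 79.0 CPM with AA, 76.0 and 88.6 CPM with PGE2 and 72.6 and 77.2 CPM with vehicle. The start of Rpl13a and a second Rpl18 peak near Fam83e were also among the 6 highest, at 69.8 to 74.5 CPM in every library.

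At the low end were a peak near the end of Rpl5 (chr5:107908616-107908814), the single peak of Rpl37rt, one beside Rps23rg1 and one at Rpl32. Their levels ran between 0.734 and 2.78 CPM over the 6 libraries, and the smallest count in any member peak was 9. The standard error of the log2 change with AA was 0.37 at Rpl37rt and 0.05 at the upstream Rpl18 peak. Thus weak peaks could show only larger changes.

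**Figure D1:**
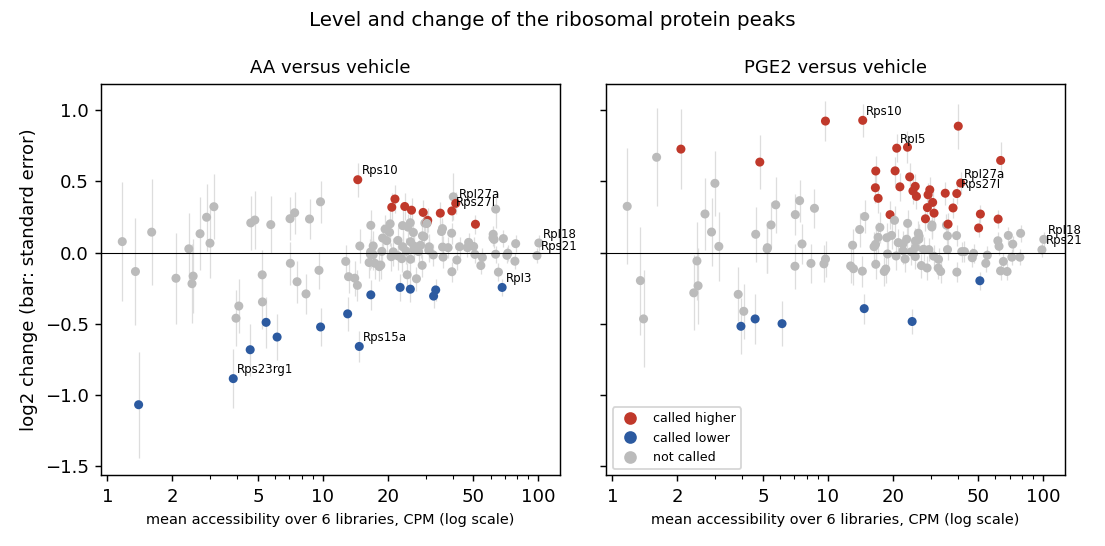
Each point is one of the 128 ribosomal protein peaks, placed by its mean level over the 6 libraries (CPM, log scale) and its log2 change with AA (left) and PGE2 (right) against vehicle, with the standard error as a bar. Called peaks are coloured. The upstream Rpl18 peak, which does not cover the table's start of that gene, and the Rps21 peak sit at the right, close to 0. The gains with PGE2 at Rps10 and Rpl5 lie below the median level of 23.3 CPM.

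With PGE2, 32 ribosomal protein peaks at 30 genes were more accessible than with vehicle and 6 were less accessible, out of 128 tested by edgeR's quasi-likelihood test with Benjamini-Hochberg adjustment over 89347 peaks. That is 25.0% higher and 4.69% lower, and the background was 31.0% higher and 5.58% lower over all gene-end peaks and 14.3% higher and 10.6% lower over all peaks. The median log2 change was 0.08 for ribosomal protein peaks and 0.13 for gene-end peaks, so the shares of the ribosomal protein peaks were near those of gene ends in general. In bulk libraries a change in the mix of cells and a change within each cell cannot be told apart. The direction depends on the scaling: when gene-end peaks were scaled on their own, which lowers their median by construction to -0.04, 19 ribosomal protein peaks were higher and 25 lower, with a median of -0.08. Over all gene-end peaks that scaling gave 20.2% higher and 19.1% lower. DESeq2 called 17 higher and 1 lower, where it called 17.3% of gene-end peaks higher and 0.937% lower. Leaving out PGE2 replicate 1 left 3 lower calls, vehicle replicate 1 left 2 and vehicle replicate 2 left 3, while higher calls numbered 23 to 33 with any library left out.

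**Figure D2:**
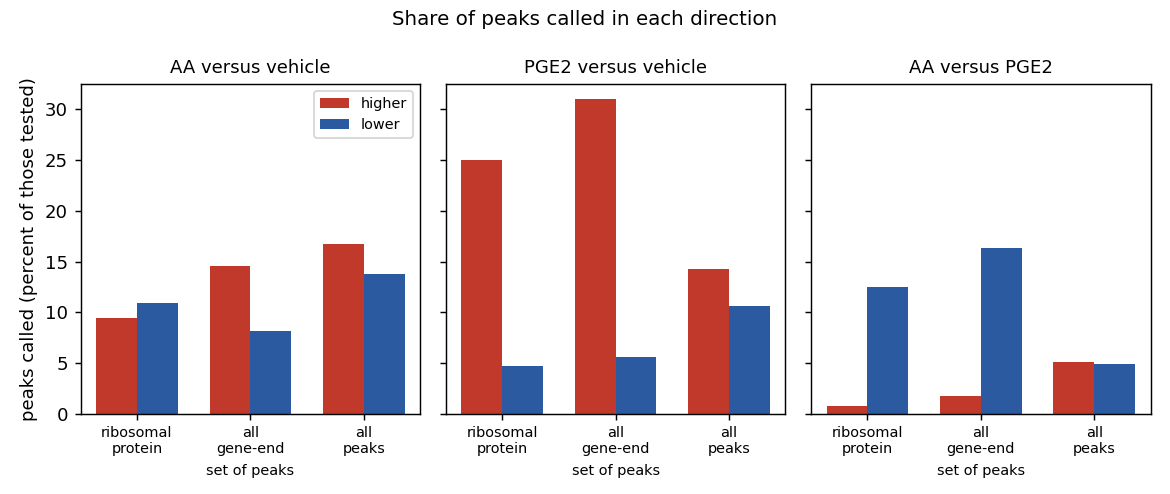
Bars give the percentage of tested peaks called higher (red) or lower (blue) in each comparison for the ribosomal protein peaks, for all gene-end peaks and for all peaks. The ribosomal protein bars for PGE2 against vehicle (25.0% and 4.69%) stand near those of all gene-end peaks (31.0% and 5.58%).

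The gain with PGE2 was largest at Rps10, which encodes a small-subunit protein that is ubiquitinated on stalled ribosomes. The peak over its start (chr17:27634586-27635798), the one around the first sequence above, had 13.6 and 15.2 CPM with AA, 18.5 and 19.8 CPM with PGE2 and 9.27 and 10.8 CPM with vehicle. All PGE2 values exceeded all AA values, and these exceeded all vehicle values. The log2 change with PGE2 was 0.93 ± 0.11 (SE; adjusted p = 3.12e-08) and with AA 0.51 ± 0.12 (adjusted p = 0.000845).

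Rpl5 and Rpl11, large-subunit proteins that also bind Mdm2 and so tie ribosome assembly to p53, both gained. The Rpl5 start (chr5:107900210-107901411) had 19.1 and 20.9 CPM with AA, 25.3 and 27.9 CPM with PGE2 and 15.9 and 16.2 CPM with vehicle. The 3 groups did not overlap, and the change with PGE2 was 0.73 ± 0.10 (adjusted p = 1.29e-07). The Rpl11 start (chr4:136052833-136053787) had 25.0 CPM in both AA libraries, 30.4 and 29.2 CPM with PGE2 and 21.1 and 22.0 CPM with vehicle. Its change with PGE2 was 0.47 ± 0.09 (adjusted p = 5.96e-05), and the AA libraries lay between the other groups.

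A small-subunit gene with a gain of like size was Rps20, whose inherited mutations have been found in human familial colorectal cancer. The peak at chr4:3834902-3836049 had 19.5 and 22.7 CPM with AA, 27.0 and 34.6 CPM with PGE2 and 19.7 and 17.2 CPM with vehicle. It changed by 0.74 ± 0.11 with PGE2 (adjusted p = 2.11e-05), and here an AA library lay within the vehicle range. PGE2 replicate 2 exceeded replicate 1 here, as it did at 27 of the 32 peaks called higher, at 79 of the 128 member peaks and at 65.0% of gene-end peaks.

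Of 79 large-subunit peaks 22 were higher (27.8%) and of 49 small-subunit peaks 10 (20.4%), against 31.0% of gene-end peaks, and the difference between subunits was not tested. The Rpl27a start (chr7:109518492-109519661) had 39.7 and 46.3 CPM with AA, 45.3 and 49.4 CPM with PGE2 and 35.1 and 32.4 CPM with vehicle, a change of 0.49 ± 0.08 with PGE2 (adjusted p = 4.02e-06). The Rpl22 start (chr4:152325385-152326448) had 23.6 and 25.1 CPM with AA, 25.4 and 30.9 CPM with PGE2 and 19.4 and 19.5 CPM with vehicle, a change of 0.53 ± 0.09 (adjusted p = 2.99e-05). In both genes each AA library lay above each vehicle library. The stalk proteins, which recruit the elongation factors to the ribosome, were split: the starts of Rplp0 and Rplp2 changed by 0.31 ± 0.07 (adjusted p = 0.00091) and 0.20 ± 0.08 (adjusted p = 0.0478) with PGE2, and the Rplp1 peak had 51.8 and 46.3 CPM with AA, 45.4 and 47.8 CPM with PGE2 and 46.3 and 47.2 CPM with vehicle. Rps6, the substrate of the S6 kinases downstream of mTORC1, changed by 0.32 ± 0.09 at its start (adjusted p = 0.00491).

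Of the 32 gains, 15 kept their call under each of 12 other fits (4 other scalings, DESeq2, the replicate number as a block and each library left out in turn). The fits without a filter and with only the 4 libraries compared were not part of this count. Among the 15 gains were Rpl5, Rpl7a, Rpl11, Rpl13, Rpl22, Rpl27a, Rpl32, Rpl35, Rps7, Rps10, Rps14, Rps20 and Rps27l. The gains at the wide shared peaks of Rpl7 and Rdh10 and of Rpl36al and Mgat2 were not among them. The Rpl7 peak had 58.9 and 64.9 CPM with AA, 68.4 and 88.2 CPM with PGE2 and 51.8 and 48.1 CPM with vehicle, so the PGE2 libraries were far apart, and its change was 0.65 ± 0.13 (adjusted p = 0.0172).

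The 6 losses with PGE2 were mostly at the far ends of genes. Rpl32l, a paralog of Rpl32, had 25.6 and 25.1 CPM with AA, 19.8 and 20.7 CPM with PGE2 and 28.6 and 27.9 CPM with vehicle at its single peak (chr10:20208678-20210283), a change of -0.48 ± 0.09 with PGE2 (adjusted p = 4.54e-05). This was the loss with PGE2 that kept its call under all 12 other fits. Peaks near the ends of Rps15a (-0.39 ± 0.11, adjusted p = 0.00412), Rpl10 (-0.50 ± 0.16, adjusted p = 0.0151), Rps26 (-0.47 ± 0.18, adjusted p = 0.0454) and Rpl22 (-0.52 ± 0.20, adjusted p = 0.0484) were also lower. The sixth lay over the start of Rpl10, an X-linked gene whose protein joins the large subunit late, with 52.8 and 52.6 CPM with AA, 46.1 and 46.7 CPM with PGE2 and 52.5 and 53.9 CPM with vehicle (-0.20 ± 0.06, adjusted p = 0.019). The AA and vehicle libraries overlapped there.

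**Figure D3:**
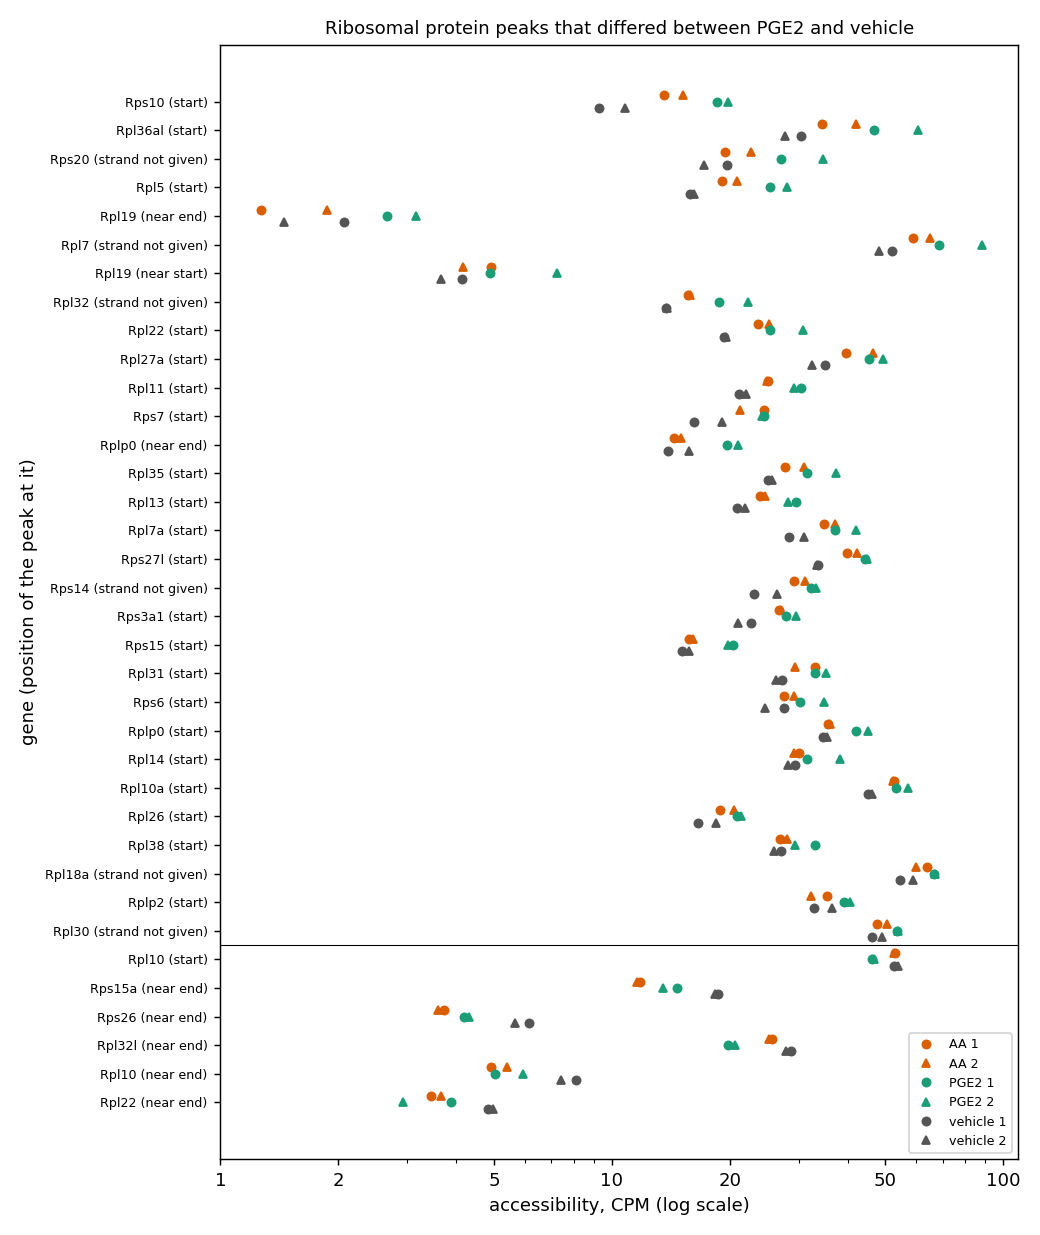
Rows are 36 of the 38 ribosomal protein peaks that differed between PGE2 and vehicle, named by gene and position of the peak, and points are the CPM values (log scale) of the 2 AA, 2 PGE2 and 2 vehicle libraries. The peaks were chosen by the PGE2 and vehicle difference, and at them the points of these groups do not overlap. At 29 of all 32 gains the AA mean lies between the other means, which this choice of peaks itself favours, so it is no evidence of a graded response.

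AA against vehicle gave 12 higher and 14 lower of the 128 peaks, 9.38% and 10.9%, where the background was 14.6% and 8.11% over gene-end peaks and 16.7% and 13.8% over all peaks. The median log2 change was 0.03, and 0.05 over gene-end peaks. These counts depended on single libraries, and those of all gene-end peaks did so too. With any library left out the median log2 change lay between 0.027 and 0.043, and between 0.04 and 0.067 over gene-end peaks. DESeq2 called 0 higher (11 at an unadjusted p under 0.05) and 1 lower, where it called 3.23% of gene-end peaks higher and 1.53% lower. With a loess trend 9 were higher and 17 lower, with a median of -0.02. Every one of the 12 gains was the strongest peak of its gene, as were 83 of all 128 member peaks, since 48 genes had 1 peak only. Weak peaks could show only larger changes. The calls for AA and for PGE2 share the vehicle libraries, so their values are given side by side and not as an overlap.

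The peaks that gained with AA were those of Rps10, Rpl27a, Rps27l, Rps7, Rpl7a, Rps3a1, Rpl22, Rps14, Rpl5, Rpl10a, Rpl31 and Rps25. At Rpl27a the change was 0.35 ± 0.08 (adjusted p = 0.000517), the smallest p among the gains. Rps7, whose protein can bind Mdm2, had 24.5 and 21.2 CPM with AA, 24.4 and 24.2 CPM with PGE2 and 16.2 and 19.1 CPM with vehicle, a change of 0.38 ± 0.10 with AA (adjusted p = 0.00302). Rps3a1 had 26.7 and 27.0 CPM with AA, 27.9 and 29.5 CPM with PGE2 and 22.7 and 21.0 CPM with vehicle (0.30 ± 0.09 with AA, adjusted p = 0.00811). Rps25, which is needed for initiation at some viral RNAs, was higher with AA (0.21 ± 0.08, adjusted p = 0.0475) and had 31.1 and 32.2 CPM with PGE2. None of the 12 gains kept its call under all 12 other fits.

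The losses with AA lay elsewhere. The clearest was the peak near the end of Rps15a (chr7:118102388-118104126), a small-subunit gene, with 11.8 and 11.6 CPM with AA, 14.7 and 13.5 CPM with PGE2 and 18.7 and 18.3 CPM with vehicle. The groups did not overlap, the change with AA was -0.66 ± 0.11 (adjusted p = 5.30e-06), and this loss kept its call under all 12 other fits. The peak over the start of the same gene had 20.5 and 20.7 CPM with AA, 20.5 and 23.2 CPM with PGE2 and 19.8 and 17.5 CPM with vehicle and did not pass the test. Near the end of Rps26 the change with AA was -0.68 ± 0.18 (adjusted p = 0.00308), near the end of Rpl10, shared with Dnase1l1, -0.59 ± 0.16 (adjusted p = 0.00329), and near the end of Rps2, shared with Ndufb10, -0.52 ± 0.13 (adjusted p = 0.00218). Near the end of Rpl10a, shared with Tead3, it was -0.31 ± 0.08 (adjusted p = 0.00316), while the start of Rpl10a was higher with both agents. Further losses with AA were called near the ends of Rpl4, Rpl26 and Rps15 and at Rpl8. The Rps15 peak is shared with Apc2 and covers a start of another protein-coding gene.

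Rpsa, which encodes a small-subunit protein also known as the laminin receptor, had a peak near its end (chr9:120132820-120134543) with 9.99 and 10.9 CPM with AA, 14.3 and 14.8 CPM with PGE2 and 15.2 and 13.0 CPM with vehicle. It was lower with AA (-0.43 ± 0.12, adjusted p = 0.00465), and the PGE2 and vehicle libraries overlapped. The wide peak at Rpl3 (chr15:80075276-80077587), whose protein reaches close to the peptidyl transferase centre, had 61.4 and 63.4 CPM with AA, 65.9 and 69.0 CPM with PGE2 and 70.8 and 77.0 CPM with vehicle. Its change with AA was -0.24 ± 0.06 (adjusted p = 0.00119). The peak at the other end of Rpl3 (chr15:80082811-80084128) had 35.9 and 37.0 CPM with AA and 36.0 and 34.9 CPM with vehicle. It did not pass the test (0.04 ± 0.07 with AA, adjusted p = 0.73). The largest changes with AA were at Rps23rg1, a retroposed copy of Rps23, where the peak over the start fell to 2.74 and 2.53 CPM with AA and had 3.89 and 4.09 CPM with PGE2, against 5.36 and 4.42 CPM with vehicle (-0.89 ± 0.21 for AA, adjusted p = 0.000869), and the peak beside it changed by -1.07 ± 0.37 (adjusted p = 0.0244).

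Position in the gene separated the AA calls. Of the 59 peaks over a start 11 were higher and 1, that of Rps23rg1, was lower, whereas of the 35 peaks near the end 0 were higher (also 0 at an unadjusted p under 0.05) and 9 were lower. DESeq2 did not keep this split in its calls: it called 0 higher and 0 lower over the start (9 and 1 at an unadjusted p under 0.05) and 0 higher and 1 lower near the end (0 and 6). The median log2 changes were 0.05 over the start and -0.17 near the end. A split of the same direction was smaller in the background: 16.8% higher and 6.38% lower over gene-end peaks that cover a start, and 10.9% higher and 11.6% lower over those that cover none. The 28 ribosomal protein peaks that cover no start of any gene counted 0 higher and 8 lower, with a median of -0.19 against -0.05 in that background. Under the other edgeR fits the peaks over the start counted 4 to 15 higher and 1 lower, those near the end counted 0 higher and 4 to 12 lower, and the difference between positions was itself not tested.

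With PGE2 the split was seen in the edgeR calls as well. Peaks over the start counted 21 higher and 1 lower (35.6% and 1.69%), where gene-end peaks over a start had 39.9% and 4.77%. Peaks near the end counted 2 higher and 5 lower (5.71% and 14.3%). The 28 members that cover no start of any gene counted 1 higher and 5 lower (3.57% and 17.9%), where gene-end peaks over no start had 13.1% and 7.34%. DESeq2 called 11 higher and 0 lower over the start (17 and 0 at an unadjusted p under 0.05). Near the end it called 0 higher and 1 lower (1 and 2). The 29 peaks of genes without a given strand counted 8 higher and 0 lower with PGE2 (1 lower at an unadjusted p under 0.05, 0 by DESeq2). Scaling gene-end peaks on their own gave 12 higher and 7 lower over the start and 1 higher and 12 lower near the end.

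**Figure D4:**
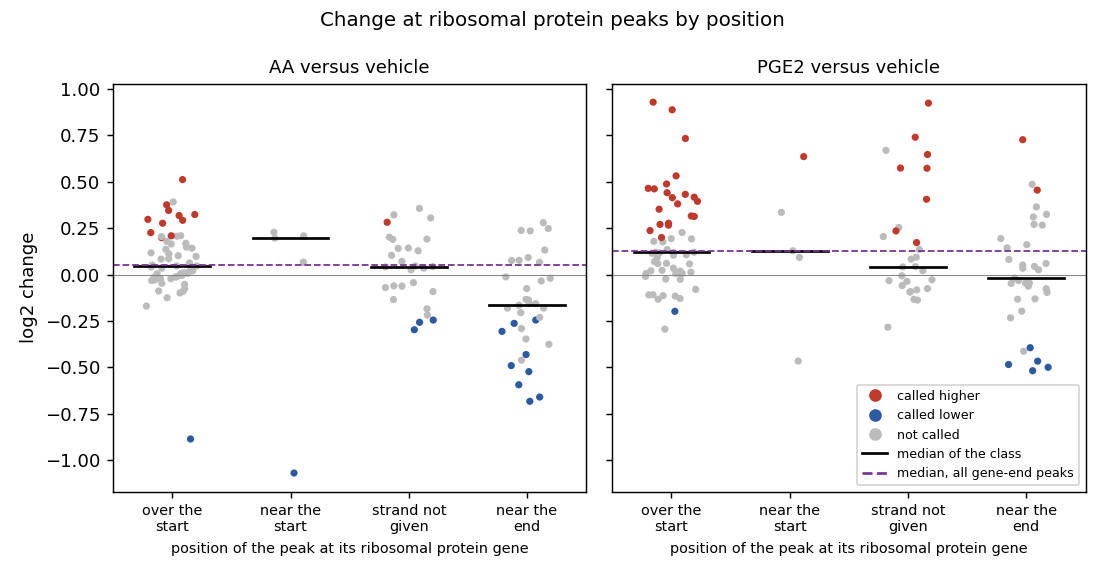
Points are the log2 changes of the 128 ribosomal protein peaks with AA (left) and PGE2 (right) against vehicle, grouped by where the peak lies at its gene, with black lines for class medians and a dashed line for the median of all gene-end peaks. Near the end of the gene the AA points centre at -0.17 and include 9 lower and 0 higher calls, while over the start 11 calls are higher.

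AA against PGE2, at unequal doses, gave 1 higher and 16 lower of 128 (0.781% and 12.5%), where the background was 1.77% and 16.3% over gene-end peaks and 5.06% and 4.88% over all peaks. The median log2 difference was -0.09, and -0.12 over gene-end peaks. The number of calls leaned on single libraries, and that of all gene-end peaks did so too. With any library left out the median log2 difference lay between -0.107 and -0.074, and between -0.133 and -0.081 over gene-end peaks. DESeq2 called 0 in either direction, with 1 higher and 13 lower at an unadjusted p under 0.05, and separate scaling of gene-end peaks gave 5 higher and 7 lower. Over the start 0 were higher (1 at an unadjusted p under 0.05) and 6 lower, where gene-end peaks over a start had 1.07% and 20.5%. Near the end 1 was higher and 6 lower. Of the 28 members that cover no start of any gene 1 was higher and 5 lower (3.57% and 17.9%), where gene-end peaks over no start had 3.31% and 6.60%.

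The peak that was higher with AA than with PGE2 was that of Rpl32l (0.33 ± 0.09, adjusted p = 0.0135). Among those that were lower with AA than with PGE2 were Rps20 (-0.55 ± 0.11, adjusted p = 0.0019), Rps10 (-0.42 ± 0.11, adjusted p = 0.00797) and Rpl5 (-0.41 ± 0.09, adjusted p = 0.00245), where the PGE2 gain was the larger one. Near the ends of Rpsa (-0.48 ± 0.12, adjusted p = 0.00569) and Rpl26 (-0.68 ± 0.17, adjusted p = 0.00718) the AA libraries were below those of both other groups. The Rpl26 values were 4.22 and 3.92 CPM with AA, 6.49 and 6.64 CPM with PGE2 and 6.20 and 5.26 CPM with vehicle. Near the end of Rplp0, at a peak shared with Gcn1, the levels were 14.4 and 15.0 CPM with AA, 19.7 and 21.0 CPM with PGE2 and 13.9 and 15.7 CPM with vehicle (-0.47 ± 0.10 for AA against PGE2, adjusted p = 0.00213). There the AA and vehicle libraries overlapped. Across the 3 comparisons 78 of the 128 peaks passed in none.

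Several members are paralogs of another ribosomal protein, and their chromatin ranged from open to not detected. Rps27l, a paralog of Rps27 that p53 induces, had 39.8 and 42.3 CPM with AA, 44.3 and 44.9 CPM with PGE2 and 33.5 and 33.3 CPM with vehicle over its start (chr9:66945575-66946700). It was higher with AA (0.29 ± 0.07, adjusted p = 0.00153) and with PGE2 (0.41 ± 0.07, adjusted p = 1.84e-05). Rps27 itself had 28.4 CPM in both AA libraries, 27.4 and 28.7 CPM with PGE2 and 29.6 and 30.8 CPM with vehicle and did not pass in any comparison.

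Rpl36al, the autosomal copy of the X-linked Rpl36a, had 34.5 and 41.9 CPM with AA, 46.9 and 60.6 CPM with PGE2 and 30.4 and 27.6 CPM with vehicle at the peak it shares with Mgat2 (chr12:69183591-69185221). Its change with PGE2 was 0.89 ± 0.16 (adjusted p = 0.0104), while Rpl36a had 20.3 and 19.4 CPM with AA, 18.2 and 18.6 CPM with PGE2 and 18.7 and 18.4 CPM with vehicle and a change of -0.01 ± 0.10 with PGE2 (adjusted p = 0.959). In the pair of Rpl22 and its paralog Rpl22l1, Rpl22 was called with both agents, and Rpl22l1, at 35.5 and 37.2 CPM with AA, 37.2 and 37.8 CPM with PGE2 and 32.5 and 33.0 CPM with vehicle, was not (0.19 ± 0.07 with PGE2, adjusted p = 0.0525). The differences between paralogs were not tested.

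Rpl3l, the muscle form of Rpl3, had no peak over its start, and its single peak, near its end and shared with Msrb1, had 52.0 to 56.6 CPM in the 6 libraries. Rps4x, on the X chromosome, had 9.15 and 9.30 CPM with AA, 9.46 and 9.57 CPM with PGE2 and 9.42 and 10.7 CPM with vehicle over its start, and did not pass in any comparison. Rpl7l1 had 3 peaks and none that differed, with 24.6 and 25.0 CPM with AA, 28.1 and 24.3 CPM with PGE2 and 27.0 and 24.2 CPM with vehicle over its start. No consensus peak within 1 kb was found at Rpl10l and Rpl39l, paralogs known from the testis, and at Rps27rt, and none covered their table starts. Rpl17, which is not among these paralogs, also had no peak in the window. It had no promoter entry, so a peak over its start could not be looked up.

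Besides Rpl7l1, the genes with 3 peaks included Rpl5, Rpl12, Rpl19, Rpl36, Rps9, Rps15a and Rps26. At Rpl12, Rpl36 and Rps9 no peak differed in any comparison, at Rpl5 the strongest peak gained while the weak ones did not pass, and at Rps15a and Rps26 a peak near the end was lower with both agents while the start did not pass. Rpl19 had weak peaks in the window (1.27 to 7.25 CPM), which leaves out the peak over its start, and of these 2 were higher with PGE2, one beside Cacnb1 (0.64 ± 0.19, adjusted p = 0.0112) and one near the gene's end (0.73 ± 0.28, adjusted p = 0.0492).

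Other genes of protein synthesis were read from 6 lists of textbook members, and with PGE2 each list held more peaks called higher than lower, as gene-end peaks did in general (31.0% higher and 5.58% lower with PGE2, 14.6% and 8.11% with AA). These list peaks lie within 1 kb of either end of a gene, and which end was not told apart. The lists had 21.7% to 50.0% of their peaks higher with PGE2, so they lay around that background. With gene-end peaks scaled separately this balance turned for ribosome biogenesis (11 higher, 15 lower) and for the regulators (3 higher, 6 lower). Of 52 gene-end peaks of translation initiation genes 14 were higher and 4 lower with AA, and 19 were higher and 1 lower with PGE2, where DESeq2 called 3 (AA) and 10 (PGE2) higher and 0 lower. The largest change was at Eif5, which triggers GTP hydrolysis on the scanning ribosome: it had 11.6 and 10.4 CPM with AA, 17.2 and 22.6 CPM with PGE2 and 6.59 and 6.41 CPM with vehicle, 3.06-fold higher with PGE2 (log2 1.61 ± 0.13, adjusted p = 1.08e-11). Eif4b, a cofactor of the initiation helicase, had 31.5 and 34.8 CPM with AA, 45.7 and 47.5 CPM with PGE2 and 27.2 and 26.1 CPM with vehicle (0.81 ± 0.08 with PGE2, adjusted p = 8.01e-11). A peak of Eif3k (chr7:28971093-28972222), a subunit of the initiation factor that binds the small subunit, was highest with AA. It had 29.1 and 30.8 CPM with AA, 21.7 and 20.8 CPM with PGE2 and 18.3 and 15.7 CPM with vehicle (0.81 ± 0.09 with AA, adjusted p = 3.34e-09). The largest change of a ribosomal protein peak with PGE2 was that of Rps10, 0.93.

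Of 18 peaks of elongation and termination genes 5 were higher and 1 lower with AA, and 9 higher and 1 lower with PGE2 (by DESeq2 1 and 1 with AA, and 5 and 0 with PGE2). Eef1a1 delivers aminoacyl-tRNA, and its RNA carries a TOP tract like those of the ribosomal proteins. A peak near an end of this gene (chr9:78475048-78477603) was lower with AA (-0.33 ± 0.06, adjusted p = 5.25e-05). It had 53.8 and 49.4 CPM with AA, 57.4 and 56.1 CPM with PGE2 and 65.4 and 64.2 CPM with vehicle. Whether this peak covers the start was not looked up. Tpt1, another TOP gene, had 47.4 and 54.2 CPM with AA, 63.5 and 77.7 CPM with PGE2 and 37.4 and 33.5 CPM with vehicle, and was lower with AA than with PGE2 (-0.48 ± 0.10, adjusted p = 0.0105). Eef1d and Eef1e1, the second a scaffold protein of the aminoacyl-tRNA synthetases, both changed by 0.56 with PGE2 (SE 0.09 and 0.08; adjusted p = 9.11e-06 and 5.06e-07). Of 76 ribosome biogenesis peaks 12 were higher and 2 lower with AA (15.8% and 2.63%), and 21 higher and 1 lower with PGE2 (27.6% and 1.32%). DESeq2 called 0 and 0 of them with AA (6 and 0 at an unadjusted p under 0.05) and 10 and 0 with PGE2. Among those higher with PGE2 were Fbl, the methyltransferase of the nucleolus (0.62 ± 0.08 with PGE2, adjusted p = 1.53e-07), and Ncl, nucleolin (0.40 ± 0.06, adjusted p = 3.73e-07). Bop1, a factor of large-subunit assembly, changed by 0.33 ± 0.08 with AA (adjusted p = 0.00103). For RNA polymerase I, which makes the large ribosomal RNA, 3 of 16 peaks were higher and 0 lower with AA (4 and 2 at an unadjusted p under 0.05, 0 and 0 by DESeq2), and 5 higher and 1 lower with PGE2 (2 and 0 by DESeq2). Polr1d was higher with AA (0.16 ± 0.05, adjusted p = 0.0211) and with PGE2 (0.39 ± 0.05, adjusted p = 2.50e-07), and Twistnb, another subunit gene, with PGE2 (0.68 ± 0.11, adjusted p = 1.13e-05).

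Among 23 peaks of genes for regulators of ribosomal protein expression, 3 were higher and 4 lower with AA (0 and 2 by DESeq2), and 5 higher and 1 lower with PGE2 (4 and 0 by DESeq2). Larp1 binds the TOP tract and holds these RNAs back when mTORC1 is off. A peak near an end of this gene (chr11:57972929-57974299) had 19.4 and 18.5 CPM with AA, 22.1 and 23.5 CPM with PGE2 and 27.6 and 32.1 CPM with vehicle. That is a change of -0.66 ± 0.09 with AA (adjusted p = 2.80e-07). Mycn changed by -0.64 ± 0.13 with AA (adjusted p = 0.000155), while the genes for the promoter factors Nfya (0.30 ± 0.05, adjusted p = 1.08e-05) and Gabpa (0.26 ± 0.06, adjusted p = 0.000584) were higher with PGE2. Of 18 peaks of chaperones and partners of ribosomal proteins 2 were higher with AA and 7 with PGE2, and 0 were lower with either agent by edgeR (also 0 at an unadjusted p under 0.05) or by DESeq2, which called 0 higher with AA and 3 with PGE2. Btf3, a subunit of a complex that binds nascent chains, changed by 0.67 ± 0.12 with PGE2 (adjusted p = 2.19e-05). Mdm2, the p53 ligase that free Rpl5 and Rpl11 inhibit, had 19.7 and 19.6 CPM with AA, 23.1 and 31.1 CPM with PGE2 and 17.5 and 16.6 CPM with vehicle (0.67 ± 0.11 with PGE2, adjusted p = 2.61e-05). The median log2 changes of these lists with PGE2 lay between 0.05 and 0.25, against 0.08 for ribosomal protein peaks and 0.13 for all gene-end peaks.

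Some sequence features were more frequent in ribosomal protein promoters than in other open promoters. Of 72 ribosomal protein promoter windows (62 genes) with a consensus peak over the start, 36.1% held CCGGAAG, the core of GABP and other ETS sites, against 18.4% of 12014 protein-coding promoters with a peak over the start and 8.86% of all promoters in the table. AAGATGG, the YY1 core, was found in 15.3% against 6.95%, and the pyrimidine run CTTTCC in 50.0% against 26.0%. The GC box GGGCGG (62.5% against 66.6%), CCAAT (33.3% against 38.8%), TATAAA (8.33% against 6.84%) and the E-box CACGTG (11.1% against 10.4%) were about as frequent in both. The cAMP response element TGACGTCA was found in 6.94% against 3.31%, and TGACG, which also lies in every full element, in 44.4% against 32.0%. All motifs were searched on both strands of the 300 bases, and windows of one gene can overlap.

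At the annotated first base, 30.6% of the 72 windows had a C against 14.3%, and in 18.1% that C and the 3 bases after and 1 before it were all pyrimidines, against 2.44%. The share of pyrimidines from 5 bases before to 10 bases after the start had a median of 60.0% against 46.7%. Rps10 and Rps21, shown above, were among the 13 windows with such a run, and Rpl5 and Rpl36al were not. Of the 23 windows whose peak was higher with PGE2, 52.2% held CCGGAAG, against 28.6% of the other 49, and 26.1% had the C within a pyrimidine run, against 14.3%. CCAAT (39.1% against 30.6%) and TGACGTCA (13.0% against 4.08%) were also more frequent. AAGATGG (8.7% against 18.4%), CACGTG (4.35% against 14.3%) and TATAAA (4.35% against 10.2%) went the other way. CTTTCC (52.2% against 49.0%), GGGCGG (60.9% against 63.3%) and TGACG (43.5% against 44.9%) were near equal. The other 49 include windows of Rpl18, Rpl19 and Rps2, whose peak over the start is no member and was not looked up. These shares are given without a test.

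**Figure D5:**
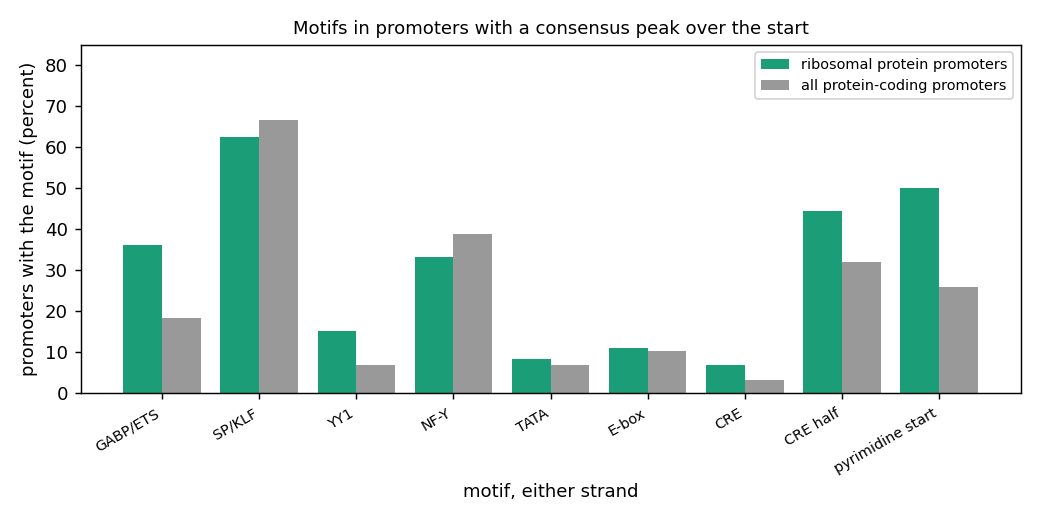
Bars give the percentage of promoter windows (300 bases) with each motif on either strand, for the 72 ribosomal protein windows and for the 12014 protein-coding windows that have a consensus peak over the start. The ETS motif (36.1% and 18.4%), the YY1 core (15.3% and 6.95%) and the pyrimidine run (50.0% and 26.0%) stand higher in ribosomal protein promoters.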

How the data were processed

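The authors deposited 1 table of counts for all 6 libraries, with fragments counted in consensus peaks. Per the file headers it was made with featureCounts 1.6.3 on read pairs, and per the submitters' processing notes Trim Galore, BWA, Picard, SAMtools and MACS2 were used with mm10. No per-sample column was left unused. Counts were tested with edgeR 4.0.16 (R 4.3.3; TMM, filterByExpr, robust glmQLFit on all 6 libraries with 1 mean per group, glmQLFTest); 1476 peaks were filtered and 89347 tested, and p-values were adjusted by the Benjamini-Hochberg method over all of these (called: under 0.05). CPM values were computed here. The median biological coefficient of variation was 4.49%. Standard errors are the log2 change divided by the root of F. Alternatives used DESeq2 1.42.0, limma 3.58.1 (loess), other scalings, a replicate block and each library left out. The script was tested on simulated counts.

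Gene positions and promoter sequences came from RefSeq tables of GRCm38.p6, in which 20 of the 88 genes had no promoter entry and so no strand. Peaks within 1 kb of 2 genes count for both (40 member peaks also lie near a gene of another kind). The members and lists were chosen with earlier results of these data known. Named were, in each comparison, up to 8 called peaks per direction, by p (1 per gene), the 6 strongest and 4 weakest, paralogs, genes with 3 peaks or none, and, of each other list, peaks among the 2 with the smallest p per comparison; others named were chosen after their values were seen. Some results that this rule covers are not reported here, though their peaks are in all counts.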

Additional observations from a re-analysis of the deposited data

How the results depend on the processing

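Of the 38 calls with the smallest p that were followed singly, none reversed its direction under these alternatives; uncalled peaks with small changes were not followed. DESeq2 called 0 higher and 1 lower with AA, 17 and 1 with PGE2, and 0 and 0 for AA against PGE2, with no adjusted p for 4 and 22 member peaks in the last comparisons; of the named calls 10 held and 27 did not, and the cause was not tested. Scaling gene-end peaks separately gave medians of -0.017 with AA and -0.084 with PGE2 (19 higher, 25 lower) and 0.025 for AA against PGE2 (5 higher, 7 lower), since it moves the gene-end median to near 0. Library totals gave medians of -0.002 with AA and 0.038 with PGE2, and the loess trend -0.017 and 0.046; for AA against PGE2 these and the DESeq2 size factors gave 2 higher. The 500 bp window left 9 lower with AA, and leaving out shared peaks (chosen after seeing the data) 8. Peaks over the start alone gave 1 lower and a median of 0.047 with AA, 21 higher, 1 lower and 0.119 with PGE2, and 0 higher, 6 lower and -0.065 for AA against PGE2 (fewer peaks). The strongest peak of each gene gave 6 lower and 0.052 with AA, 2 lower with PGE2, and 10 lower and -0.073 for AA against PGE2. With 1 library left out the calls ranged from 4 to 18 higher and 7 to 15 lower with AA, 23 to 33 higher and 2 to 5 lower with PGE2, and 0 to 1 higher and 1 to 22 lower for AA against PGE2 (median -0.107 to -0.074); the lone library of a group is assumed to vary like the others. Per kb the median percentile of the level was 79.8. The replicate numbers are shared by label alone: same-numbered libraries deviated together with correlations of 0.0357 (AA and PGE2), 0.00469 (AA and vehicle) and -0.0198 (PGE2 and vehicle), and with the replicate block the calls were 14 higher and 14 lower with AA, 30 and 6 with PGE2 and 1 and 19 for AA against PGE2. Other settings (no filter, 4 libraries only) stayed within 1.5 times of the counts given. Depth limits the weak peaks near gene ends, and 2 libraries per group limit all calls.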
